A study of Homo sapiens with 12 samples.

Results

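The mRNAs of the mitochondrial ribosomal proteins were followed in A549, an epithelial line grown from a human lung carcinoma, with and without the endoribonuclease RNase L. They were taken as all gene rows whose symbol is MRPL or MRPS followed by a number and an optional letter A, B or C. This gave 78 of the 58671 gene rows, 49 named MRPL for the large subunit and 29 named MRPS for the small subunit. The samples fell into 4 groups of 3 samples each, labelled as replicates, 12 in all. The groups were parental cells without treatment (WT untreated), parental cells 6 h after transfection of poly(I:C) at 500 ng/ml (WT treated), RNase L knockout cells without treatment (RLKO untreated) and knockout cells after the same transfection (RLKO treated). Poly(I:C) is a synthetic double-stranded RNA that cells sense as viral RNA. How many knockout clones were used, and how the gene was disrupted, is not given in the sources used. Total RNA was sequenced after depletion of ribosomal RNA, and ERCC spike-in RNAs, synthetic transcripts that are not human, had been added before the depletion. The table analysed here holds 1 level per gene and group, in FPKM, the fragments counted per kilobase of transcript, scaled to the size of the library, so no value of a single sample and no spread between samples can be given. The read depth behind these levels is unknown.

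Mitochondria keep their own ribosome, which makes the few proteins encoded in mitochondrial DNA, all of them subunits of the respiratory chain and the ATP synthase. Its RNAs come from the mitochondrial genome, but every one of its proteins is encoded in the nucleus, made on cytosolic ribosomes and imported. Some of these proteins descend from those of the bacterial ribosome, and others were added in the mitochondrial lineage. RNase L is switched on by 2-5A, which the oligoadenylate synthetases make when they meet double-stranded RNA, and cuts single-stranded RNA mostly after UU and UA. The comparison asked how far the mRNAs of this one complex followed the loss of host mRNA after poly(I:C), and how much of that was seen without RNase L.

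The labels were first checked against the levels. The epithelial keratins KRT8 and KRT18 stood at 627 and 527 FPKM in untreated WT, while EPCAM and CLDN4 were at 1.03 and 0.590. CDH1 stood at 4.52 FPKM in untreated WT and 3.70 in untreated RLKO. KRT19 stood at 14.4 FPKM in untreated WT and 54.0 in untreated RLKO, so this marker differed between the lines before treatment, without a test. Of 10 markers of blood, endothelial, fibroblast and liver cells only COL1A1 reached 1 FPKM in any group. The interferon-response genes IFIT2, ISG15 and OASL rose in both genotypes (q of 0.0107 or lower in the authors' deposited table). The spike-in RNAs made up more of the treated than of the untreated libraries, with 48 of 49 usable ERCC rows higher in treated WT and 32 higher in treated RLKO. Changes are therefore given as the log2 ratio of treated to untreated levels after dividing each group by its spike-in factor and adding a pseudocount of 1. Relative to FPKM as deposited, the factors lower a change by up to 0.61 in WT and 0.18 in RLKO on the log2 scale, by less in low genes, whose change the pseudocount understates. The authors' tests were made on their own values, not on the spike-in scale. In such bulk samples, fewer cells and less RNA per cell cannot be told apart.

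Of the 78 rows, 75 reached 1 FPKM in at least 1 group and were kept. MRPS12, a protein of the decoding centre, and MRPS18B were listed at 0 in all 4 groups. So were RPL7A, RPS18 and RPS25 of the cytosolic ribosome and NDUFS3 of the respiratory chain, which cells use in general, so a listed 0 may be a failed estimate and does not show that the mRNA is absent. MRPL45, which lies at the exit of the peptide tunnel, stood at 0.369, 0.118, 0.362 and 0.129 FPKM in WT untreated, WT treated, RLKO untreated and RLKO treated. Its row and the rows of MRPS12 and MRPS18B are marked NOTEST and carry p-values of 1 in the authors' deposited table. The 75 kept mRNAs come from genes on 21 chromosomes, with at most 8 on any of them.

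In untreated WT cells the 75 mRNAs stood between 11.2 and 692 FPKM, with a median of 97.9. The most abundant was MRPL51 at 692 FPKM, followed by MRPL17 at 522, MRPL33 at 495, MRPL52 at 372, MRPS23 at 328 and MRPS33 at 269.7. The least abundant of those kept was MRPL23 at 11.2 FPKM, followed by MRPS30 at 19.2 and MRPL44 at 22.6. Proteins of 1 complex are therefore served by mRNA levels that span more than an order of magnitude. After poly(I:C) the median in WT was 31.0 FPKM, with a range from 4.24 to 127. In RLKO the median was 88.8 FPKM untreated, with a range from 8.19 to 587, and 54.5 treated, with a range from 6.40 to 256.

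After poly(I:C), 15 of the 75 mRNAs fell in WT and none rose, at a q under 0.05 in the authors' deposited table. By the same rule 3.35% of all kept rows were called lower and 4.48% higher, and of protein-coding rows 3.09% lower and 4.27% higher. The 15 comprised 11 MRPL and 4 MRPS genes. In counts below, genes said to fall are those called lower by this rule. The median change over the 75 was -2.22 on the log2 scale, with quartiles at -2.62 and -1.58, against a median of -0.70 over 12181 protein-coding genes. On the spike-in scale this left a median of 20.6% of the untreated level, from 8.01% for MRPS33 to 71.1% for MRPS30. In FPKM as deposited the median was 31.6%, from 12.3% to 109%. All 75 changes lay below 0 on the spike-in scale, beside 78.4% of protein-coding genes. MRPS30 lay above 0 in FPKM as deposited and with a scaling over genes, the other 74 below 0 in both. A change of -1 or lower was seen in 69 of 75, beside 37.0% of protein-coding genes.

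**Figure D1:**
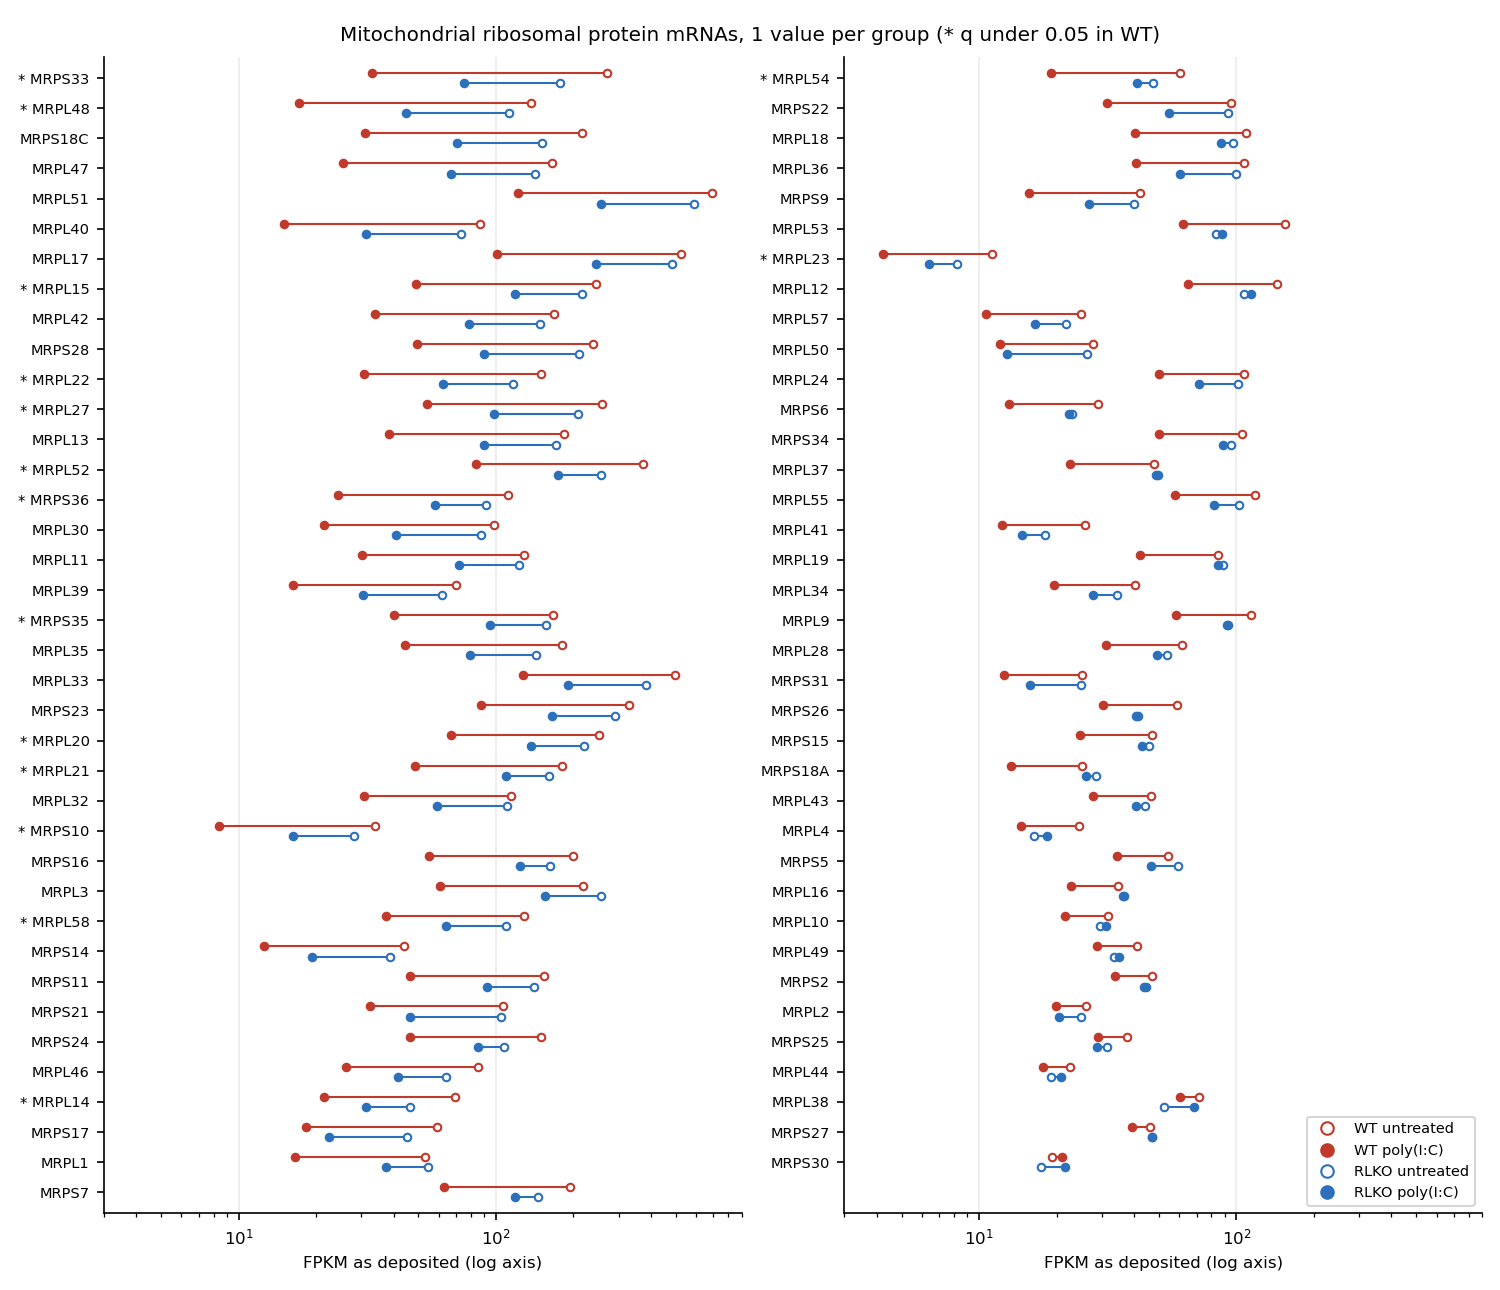
FPKM as deposited (log axis) of each of the 75 kept mRNAs, 1 value per group, ordered by the change in WT from the lowest at the upper left. Red marks WT and blue RLKO, open circles untreated and filled circles treated cells, and asterisks mark the 15 that fell in WT. In FPKM as deposited the treated WT circle lies left of the untreated one for 74 genes, MRPS30 being the exception, while in RLKO it does so for 63, and with a scaling over genes in place of FPKM the RLKO count is 52.

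The lowest changes in WT among the 15 belonged to mitochondria-specific proteins of both subunits. MRPS33 is a small-subunit protein without a bacterial counterpart (chr7:141002610-141015228, minus strand). It stood at 269.7 FPKM in untreated WT and 33.1 in treated WT, and at 178 and 75.1 in RLKO. It fell by 3.59 on the log2 scale in WT (q = 0.00319 in the authors' deposited table). MRPL48, part of the central protuberance of the large subunit (chr11:73787316-73865133, plus strand), stood at 137 and 17.2 FPKM in WT and at 113 and 44.5 in RLKO. It fell by 3.52 in WT (q = 0.0018 in the authors' deposited table), the smallest q of the 78. In both genes the treated level in WT was under that of treated RLKO although the untreated level in WT was higher.

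MRPL52 and MRPL54, mitochondria-specific proteins of the large subunit, fell as well. MRPL52 stood at 372 FPKM in untreated WT and 83.5 in treated WT, and at 256 and 175 in RLKO. MRPL54 stood at 60.5 and 19.1 FPKM in WT and at 47.6 and 41.1 in RLKO. Their changes in WT were -2.75 and -2.21, and the changes in RLKO were -0.73 and -0.38, the latter the one nearest to 0 among the 15. MRPL58, a peptidyl-tRNA hydrolase that became a structural part of the central protuberance, stood at 129 and 37.4 FPKM in WT and at 109.5 and 64.1 in RLKO, a change of -2.36 in WT. MRPS35, a small-subunit protein, stood at 167 and 40.3 FPKM in WT and at 156 and 94.7 in RLKO, a change of -2.63 in WT. The q values of these 4 genes lay between 0.00847 for MRPL54 and 0.0434 for MRPL58 in the authors' deposited table.

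The other 8 ribosomal proteins that fell have bacterial homologues, 7 of them in the large subunit. MRPL22 and MRPL23, which line the tunnel through which the new peptide leaves, stood at 150.2 and 11.2 FPKM in untreated WT and at 30.8 and 4.24 in treated WT. Their changes were -2.85 and -1.76, the latter the smallest fall of the 15. MRPL27, whose bacterial counterpart reaches towards the peptidyl transferase centre, stood at 259 and 54.1 FPKM in WT and at 208 and 98.2 in RLKO, with a change of -2.85 in WT. MRPL15, MRPL20 and MRPL21 stood at 246, 251 and 181 FPKM in untreated WT and at 48.8, 67.1 and 48.6 in treated WT. MRPL14, which sits at the face towards the small subunit, stood at 69.5 FPKM in untreated WT and 21.5 in treated WT. Its q was 0.0494 in the authors' deposited table, the highest of the 15. The single small-subunit gene of this kind was MRPS10, at 33.8 and 8.39 FPKM in WT and 28.1 and 16.2 in RLKO. The changes of these 4 MRPL genes ran from -2.91 for MRPL15 to -2.25 for MRPL14, and that of MRPS10 was -2.46.

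MRPS36 completes the 15 and carries a ribosomal name only, since its product is a part of the 2-oxoglutarate dehydrogenase complex. It stood at 111 FPKM in untreated WT, 24.3 in treated WT, 91.2 in untreated RLKO and 58.2 in treated RLKO. It fell by 2.75 in WT (q = 0.0145 in the authors' deposited table). Its change thus lay among those of the ribosomal proteins, and the counts over the 75 include it.

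The calls went with the size of the change only in part. Of the 20 lowest changes in WT 8 passed, and of the other 55 changes 7. In all, 11 mRNAs that did not pass had a change at or below the median of those that did. MRPS18C, at 217 FPKM in untreated and 31.0 in treated WT, had a change of -3.37 and a q of 0.265 in the authors' deposited table. MRPL47, at 165 and 25.5 FPKM, had a change of -3.25 and a q of 0.325 there. MRPL51, the most abundant, stood at 692 and 122 FPKM (change -3.11, q = 0.0737 in the authors' deposited table). MRPL39 missed the threshold at a q of 0.0504 in the authors' deposited table, with 70.2 and 16.3 FPKM in WT. By the unadjusted p-values of the authors' deposited table, 40 of the 75 were lower in WT at p under 0.05 and none higher, beside 12.1% of protein-coding rows.

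Whether the exons of a gene overlap those of another protein-coding gene moved with these calls. None of the 33 mRNAs that share exon bases with another coding gene passed in WT, against 15 of the 42 that share none. MRPS18C overlaps ABRAXAS1, MRPL47 overlaps ACTL6A and MRPL51 overlaps NCAPD2. The median change in WT was -1.91 for the 33 and -2.27 for the 42, and the median untreated WT level was 85.1 and 107 FPKM. Among other protein-coding genes with a change of -1 or lower, 4.28% of 1517 overlapping and 10.1% of 2915 non-overlapping genes were called lower. Strand use in counting is not given in the sources used, so reads from overlapping exons of a neighbour cannot be told apart. Its part in the calls was not tested.

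The coding sequences of the 3 lowest and the 3 highest changes in WT are shown to let the letters that RNase L prefers be seen where the response was largest and smallest. They were chosen after the values were seen and read from GENCODE release 29 transcripts on GRCh38, in the sense direction, with T for U. Each line gives the first 150 coding bases from the start codon, with every TT and TA in capitals. MRPS33 holds 17 such pairs in the stretch shown, MRPL48 24 and MRPS18C 14, against 2 in MRPL38, 13 in MRPS27 and 11 in MRPS30.
MRPS33: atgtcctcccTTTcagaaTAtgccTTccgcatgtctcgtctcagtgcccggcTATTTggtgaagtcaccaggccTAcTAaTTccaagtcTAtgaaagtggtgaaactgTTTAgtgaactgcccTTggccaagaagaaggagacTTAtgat
MRPL48: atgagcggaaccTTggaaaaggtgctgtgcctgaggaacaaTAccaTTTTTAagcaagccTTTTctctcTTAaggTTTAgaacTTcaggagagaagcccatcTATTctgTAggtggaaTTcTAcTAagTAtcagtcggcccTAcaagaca
MRPS18C: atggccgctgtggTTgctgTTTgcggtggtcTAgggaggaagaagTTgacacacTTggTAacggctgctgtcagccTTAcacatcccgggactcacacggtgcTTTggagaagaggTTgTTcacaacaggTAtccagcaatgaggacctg
MRPL38: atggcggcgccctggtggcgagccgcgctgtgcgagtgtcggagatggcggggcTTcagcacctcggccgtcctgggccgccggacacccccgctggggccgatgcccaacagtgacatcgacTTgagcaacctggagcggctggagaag
MRPS27: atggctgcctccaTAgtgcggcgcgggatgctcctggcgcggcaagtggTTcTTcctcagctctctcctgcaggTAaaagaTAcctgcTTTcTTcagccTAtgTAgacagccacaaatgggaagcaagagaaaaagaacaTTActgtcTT
MRPS30: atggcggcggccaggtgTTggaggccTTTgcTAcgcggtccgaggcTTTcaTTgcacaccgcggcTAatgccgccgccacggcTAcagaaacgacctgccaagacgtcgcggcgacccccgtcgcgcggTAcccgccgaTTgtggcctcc

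Over the whole coding sequence MRPS33, MRPL48 and MRPS18C hold 9.97, 11.7 and 14.2 TT or TA per 100 bases. MRPL38, MRPS27 and MRPS30 hold 5.69, 11.7 and 11.1. MRPL38 is the one of the 6 with a clearly sparser sequence, while MRPS27 (chr5:72219409-72320646) and MRPS30 (chr5:44808925-44820428), among the least changed, were as rich in these pairs as MRPL48. The coding sequences of the first 3 are 321, 639 and 429 bases long and those of the last 3 are 1143, 1245 and 1320. Their whole mRNAs are 4241, 1536 and 1643 bases long, against 1888, 2785 and 1678. Untreated WT levels were 269.7, 137 and 217 FPKM, against 71.8, 46.2 and 19.2. These 6 were picked by their change, and the part of pairs, length or level was not tested.

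The 3 mRNAs at the upper end, MRPS30, MRPS27 and MRPL38, kept 71.1%, 55.5% and 54.8% of their untreated WT level on the spike-in scale. In FPKM as deposited they kept 109%, 84.9% and 83.9%. MRPS30, which despite its name sits in the large subunit, stood at 19.2 FPKM in untreated WT and 20.9 in treated WT, and at 17.5 and 21.5 in RLKO. Its change in WT was -0.47 on the spike-in scale, and it is above 0 in FPKM as deposited. MRPS27, a pentatricopeptide-repeat protein of the small subunit, stood at 46.2 and 39.2 FPKM in WT and at 47.1 and 47.1 in RLKO. MRPL38, of the central protuberance, stood at 71.8 and 60.2 FPKM in WT and at 52.2 and 68.6 in RLKO. The changes of MRPS27 and MRPL38 in WT were -0.83 and -0.86, and none of the 3 passed the test in either genotype.

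In RLKO none of the 75 mRNAs passed, with a lowest q of 0.767 in the authors' deposited table. By the same rule 0.0272% of all kept rows were called lower and 0.512% higher, and of protein-coding rows 0.0246% lower and 0.821% higher, so few genes of any kind were called lower. By the unadjusted p-values of the authors' deposited table, 6 were lower at p under 0.05 and none higher, beside 1.86% of protein-coding rows, namely MRPL27, MRPL39, MRPL48, MRPL50, MRPS21 and MRPS33. The median change was -0.72, with quartiles at -1.07 and -0.29, against -0.24 over protein-coding genes. This left a median of 60.3% of the untreated level, from 34.9% for MRPL48 to 116% for MRPL38. On the spike-in scale 73 of 75 lay below 0, beside 80.1% of protein-coding genes, but 63 did so in FPKM as deposited and 52 with a scaling over genes. A change of -1 or lower was seen in 22 of 75, beside 5.34% of protein-coding genes. In FPKM as deposited it was seen in 11, beside 2.91%, and with a scaling over genes in 4, beside 1.03%.

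Every one of the 75 had a lower change in WT than in RLKO, under each of the 4 scalings tried, but the samples behind a value were pooled and this difference was not tested. The median difference, WT minus RLKO, was -1.47 on the log2 scale, with quartiles at -1.73 and -1.12, against -0.47 over protein-coding genes, of which 73.3% lay below 0. A difference of -1 or lower was seen in 63 of 75, beside 24.1% of protein-coding genes, and in FPKM as deposited in 38, beside 10.5%. The 5 lowest differences were those of MRPS33 at -2.19, MRPS18C at -2.11, MRPL52 at -2.03, MRPL48 at -2.02 and MRPL47 at -1.99. The 5 nearest to 0 were those of MRPL2 at -0.51, MRPL50 at -0.57, MRPS30 at -0.59, MRPS25 at -0.65 and MRPS27 at -0.66. MRPL2, a core protein of the large subunit, stood at 26.0 and 19.9 FPKM in WT and at 24.9 and 20.4 in RLKO. MRPL50 stood at 27.6 and 12.03 FPKM in WT and at 26.3 and 12.9 in RLKO, so its level was more than halved in both genotypes. MRPS25 stood at 37.4 and 29.1 FPKM in WT and at 31.5 and 28.8 in RLKO.

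The order of the genes was much alike in the 2 genotypes. Across the 75, the changes in WT and in RLKO had a Spearman correlation of 0.86 and a Pearson correlation of 0.87, against 0.56 and 0.69 over 12115 protein-coding genes with a level in both untreated groups. Of the 20 lowest changes in each genotype, 14 were shared. These are correlations across genes, which are not independent replicates, and the spike-in factors are common to all genes of a group. Exceptions to the common order were MRPL53 and MRPL12. MRPL53 stood at 155 and 62.1 FPKM in WT and 83.7 and 87.6 in RLKO, and MRPL12 at 144 and 64.9 in WT and 107 and 114 in RLKO. MRPL12 belongs to the L7/L12 stalk, which recruits translation factors. Their changes were -1.91 and -1.74 in WT and -0.11 and -0.10 in RLKO. At the other side stood MRPS21, at 107 and 32.5 FPKM in WT and 105 and 46.5 in RLKO, with changes of -2.29 and -1.33. These 3 were picked after the values were seen.

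**Figure D2:**
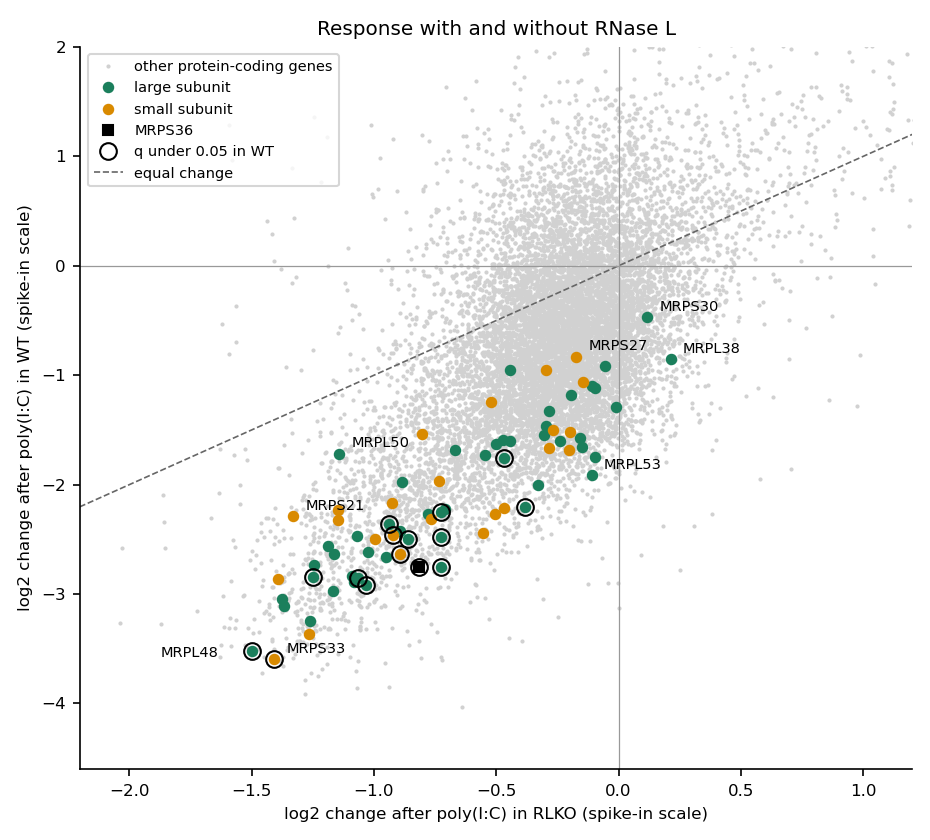
Log2 change after poly(I:C) on the spike-in scale in RLKO (horizontal axis) and in WT (vertical axis), 1 point per gene, with large-subunit proteins in green, small-subunit proteins in orange, MRPS36 as a black square and 12106 other protein-coding genes in grey, of which 207 lie beyond the axes. Black rings mark the 15 mRNAs that fell in WT and the dashed line marks equal changes, below which all 75 mRNAs lie under each of the 4 scalings tried.

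Between genotypes, the 75 mRNAs were higher in untreated WT than in untreated RLKO by a median of 0.48 on the log2 scale, beside 0.24 over protein-coding genes. All 75 lay above 0 on the spike-in scale, beside 78.2% of protein-coding genes, but 8 lay below 0 in FPKM as deposited and 3 with a scaling over genes. After treatment they were lower in WT by a median of -0.94, against -0.25 over protein-coding genes. None lay above 0 on the spike-in scale, beside 64.3% of protein-coding genes below 0, and in FPKM as deposited MRPS25 was the exception. Neither comparison has a test, since the authors' deposited table compares treated with untreated cells only.

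The median changes of the 2 subunits were close. Of 50 kept large-subunit proteins, 11 fell in WT, with a median change of -2.11 in WT and -0.72 in RLKO. Of 24 small-subunit proteins, 3 fell, with medians of -2.22 and -0.75. The median differences, WT minus RLKO, were -1.48 for the large and -1.35 for the small subunit. These medians lay closer to each other than the quartiles within either subunit, and no test between them was made.

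By origin, 8 of 45 proteins with a bacterial homologue fell in WT, with a median change of -2.25, and 6 of 29 mitochondria-specific proteins, with a median of -1.73. In RLKO the medians were -0.72 and -0.55. The quartiles in WT overlapped, at -2.56 and -1.63 for the bacterial homologues and -2.63 and -1.46 for the mitochondria-specific proteins. Their median untreated WT levels were 109 and 70.2 FPKM, and the part of level was not tested. The mitochondria-specific group spanned the whole range, from MRPS33 at -3.59 to MRPS30 at -0.47, while the bacterial group ran from MRPS18C at -3.37 to MRPL2 at -0.95. By place in the ribosome, 2 of 7 proteins of the central protuberance fell, with a median of -2.27. Of 4 tunnel-exit proteins 2 fell, with a median of -1.72. None of the 3 stalk proteins MRPL10, MRPL11 and MRPL12 was called lower in WT. Their changes of -1.12, -2.66 and -1.74 were nevertheless all at -1 or lower. MRPL11 and MRPL12 share exon bases with another coding gene, and none of the 33 such mRNAs passed. By the same rule 20% of the 75 and 3.09% of protein-coding rows were called lower in WT. With so few genes per place, these counts were not compared.

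**Figure D3:**
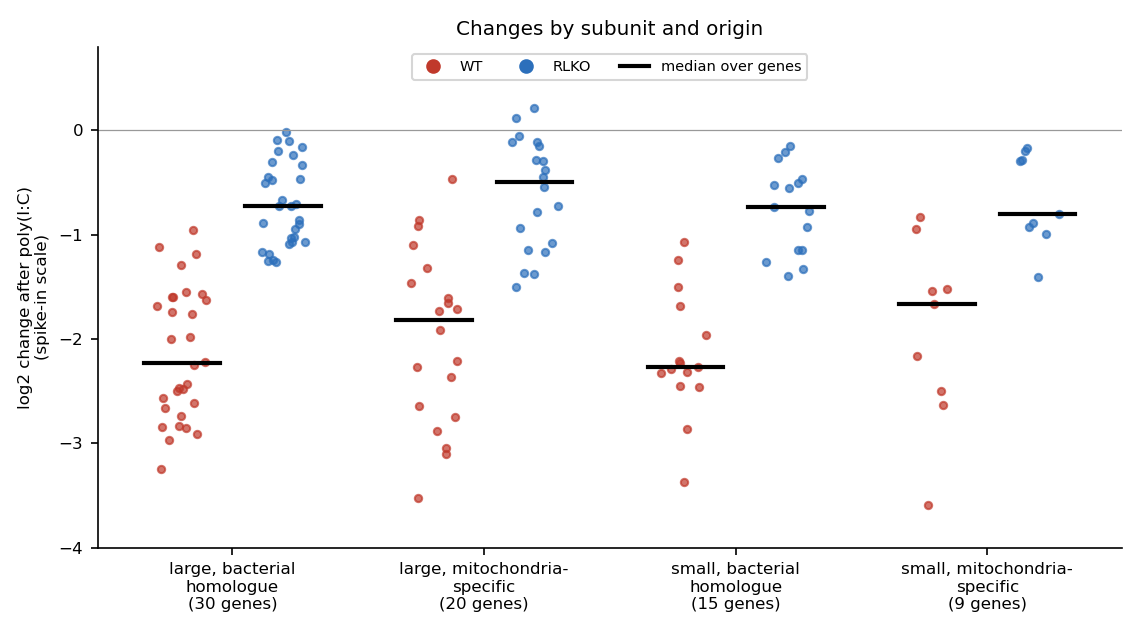
Log2 change after poly(I:C) on the spike-in scale for the 74 ribosomal mRNAs by subunit and by whether the protein has a bacterial homologue, in WT (red) and RLKO (blue). Each point is 1 gene and black bars are medians over genes. On this scale all WT points lie below 0, with MRPS30 above 0 in FPKM as deposited, and RLKO points overlap them in each class.

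The MRPS18 paralogues that were kept differed in level and in change. MRPS18C is the small-subunit protein closest to the bacterial one, MRPS18A sits in the large subunit and MRPS18B is listed at 0. MRPS18A stood at 25.2 FPKM in untreated WT, 13.3 in treated WT, 28.5 in untreated RLKO and 26.0 in treated RLKO. Its changes were -1.46 in WT and -0.30 in RLKO, against -3.37 and -1.26 for MRPS18C, which was the more abundant of the pair in all 4 groups. Neither passed in WT (q of 0.268 for MRPS18A and 0.265 for MRPS18C in the authors' deposited table). Both share exon bases with another coding gene, MRPS18A with RSPH9 and MRPS18C with ABRAXAS1. The part of level or overlap was not tested.

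Of the 5 mitoribosomal proteins that do not carry an MRP name, 2 fell in WT and none in RLKO. CHCHD1, a small-subunit protein, stood at 99.4 and 24.03 FPKM in WT and at 68.0 and 41.9 in RLKO. DAP3, a GTP-binding small-subunit protein, stood at 232 and 85.1 FPKM in WT and at 263 and 151 in RLKO. Their changes in WT were -2.60 and -2.05 (q of 0.0231 and 0.0279 in the authors' deposited table). AURKAIP1, at 85.6 and 42.6 FPKM in WT, and GADD45GIP1, at 35.9 and 12.6, did not pass, with changes of -1.59 and -2.03. PTCD3, another pentatricopeptide-repeat protein of the small subunit, stood at 279 and 223 FPKM in WT and at 315 and 197 in RLKO. Its changes, -0.93 in WT and -0.85 in RLKO, differed by -0.08, nearer to 0 than in any of the 75.

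Among the 75 mRNAs the change went with the untreated level. The change in WT had a Spearman correlation of -0.75 with the untreated level in RLKO, a group that does not enter that change, beside -0.63 over protein-coding genes. Among the 25 mRNAs with the lowest untreated RLKO level, 8.19 to 46.3 FPKM, the median change in WT was -1.52 and 3 fell. Among the 25 in the middle it was -1.98 and 3 fell, and among the 25 with the highest level, 111 to 587 FPKM, it was -2.75 and 9 fell. The change in RLKO had a correlation of -0.56 with the untreated level in WT, beside -0.39 over protein-coding genes.

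It also went with base composition. GC content of the coding sequence had a Spearman correlation of 0.50 with the change in WT and 0.59 with the change in RLKO, beside 0.19 and 0.14 over 11980 protein-coding genes. TT or TA pairs per 100 coding bases, which go with GC at -0.93 across the 75, had correlations of -0.39 and -0.46. In the 25 mRNAs with the fewest pairs, 2.27 to 6.51 per 100 bases, the median changes were -1.63 in WT and -0.38 in RLKO. In the 25 with the most, 10.6 to 14.5, they were -2.61 and -1.02. The correlation of the pairs with the difference between genotypes was -0.19, nearer to 0 than with the change in either genotype. The 25 with the fewest pairs also had a lower untreated level, with a median of 46.3 FPKM in RLKO against 91.2 in the 25 with the most. The part of each was not tested.

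Coding length had a correlation of 0.35 with the change in WT, and the length of the whole mRNA 0.03, against 0.34 and 0.27 over protein-coding genes. The 25 with the longest coding sequences, 753 to 1320 bases, had a median change in WT of -1.55. For the 25 with the shortest, 198 to 480 bases, it was -2.25, and for the 25 between, 486 to 729 bases, -2.46. From shortest to longest, the median untreated RLKO levels were 91.2, 109.5 and 52.2 FPKM, and the part of level was not tested. The median coding sequence of the 75 was 585 bases, against 1380 for protein-coding genes. An mRNA half-life that the authors took from another study, per the file headers, and deposited for 71 of the mRNAs had a correlation of -0.19 with the change in WT, against -0.51 over 9523 protein-coding genes. All of these are descriptions across genes of 1 table.

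**Figure D4:**
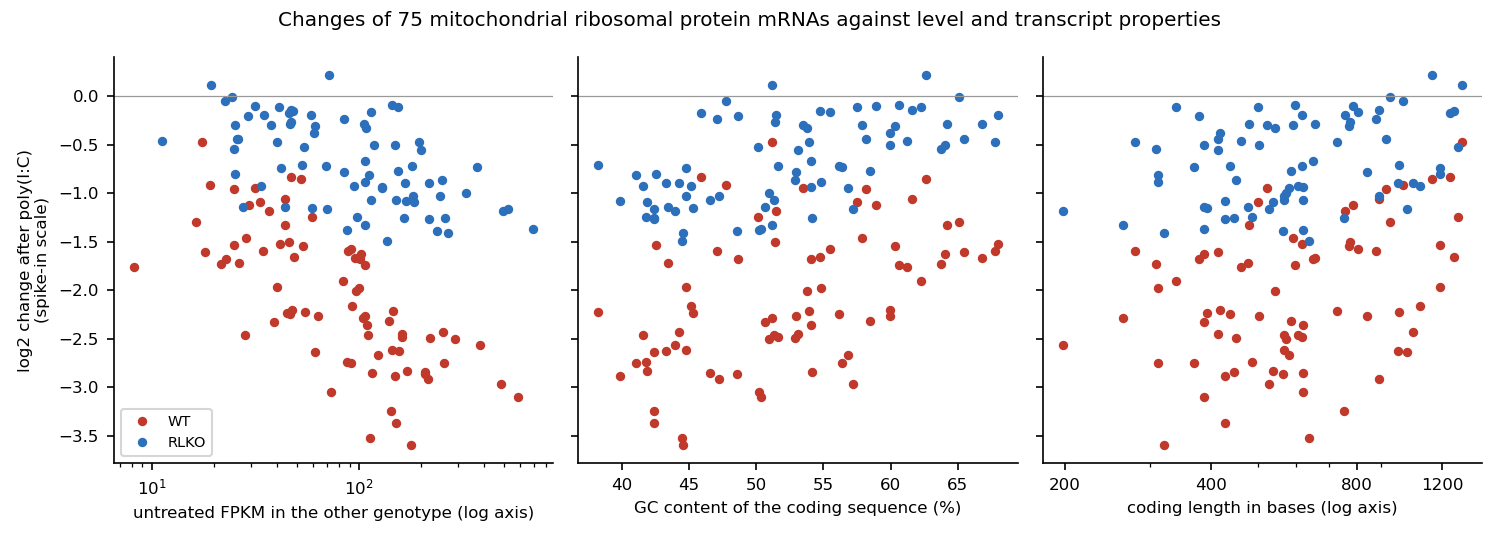
Log2 change after poly(I:C) on the spike-in scale for the 75 mRNAs in WT (red) and RLKO (blue), against the untreated FPKM of the other genotype (left, log axis), GC content of the coding sequence in percent (middle) and coding length in bases (right, log axis). Changes are lower at higher level, with Spearman correlations of -0.75 in WT and -0.56 in RLKO, and higher at higher GC content, with 0.50 and 0.59.

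Since the level goes with the change, the 75 mRNAs were set beside other protein-coding genes of like level in the other genotype. In WT, 64 of 75 lay below the median of the other genes in their class of untreated RLKO level. At 10 to 30 FPKM the medians were -1.50 for 12 mitoribosomal mRNAs and -0.78 for 3402 other genes. At 30 to 100 FPKM they were -1.66 and -1.25, with 31 and 2366 genes, and at 100 to 300 FPKM -2.56 and -1.88, with 28 and 809 genes. In RLKO, in classes of untreated WT level, 48 of 75 lay below the median of the other genes. Their medians at 30 to 100 FPKM were -0.38 and -0.35, and at 100 to 300 FPKM -0.89 and -0.61.

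The mitoribosomal mRNAs were set beside those of other large complexes. Of 78 kept cytosolic ribosomal proteins, 14 fell and 1 rose in WT, with a median change of -2.80 in WT and -0.97 in RLKO. The one that rose was RPL3L, a muscle paralogue of RPL3, from 0.144 to 6.08 FPKM. Of 71 nuclear-encoded subunits of the respiratory chain and ATP synthase, 23 fell, with medians of -2.75 and -1.03. Their median untreated WT levels were 1183 and 246 FPKM, above the 97.9 FPKM of the mitoribosomal mRNAs. Of 22 kept genes with TIMM or TOMM names, listed as import subunits, 2 fell, TIMM10 from 329 to 57.1 FPKM and TIMM23 from 174 to 48.1. The medians of the 22 were -1.83 and -0.55. By the same rule 3.09% of protein-coding rows were called lower in WT. A change of -1 or lower in WT was seen in 69 of the 78 cytosolic ribosomal genes. It was also seen in all 71 respiratory genes and 19 of the 22 import genes, beside 37.0% of protein-coding genes.

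None of the factors listed for building and serving the mitochondrial ribosome passed in either genotype, beside the 3.09% of protein-coding rows called lower in WT and 0.0246% in RLKO, so a count of 0 lies near the background. The 27 kept genes of mitoribosome assembly and rRNA maturation had a median change of -0.92 in WT and -0.21 in RLKO, at a median untreated WT level of 23.7 FPKM. The most abundant were MALSU1, at 128 FPKM in untreated and 50.5 in treated WT, and NGRN, at 74.2 and 46.3. By the unadjusted p-values of the authors' deposited table, 1 of the 27 was lower in WT at p under 0.05. The share of protein-coding rows lower in WT by that measure was 12.1%. The 16 mitochondrial translation factors had medians of -1.46 and -0.43, with 4 lower in WT by that measure. Among them SLIRP, an RNA-binding protein that holds mitochondrial mRNAs together with LRPPRC, stood at 1072 FPKM in untreated WT and 161 in treated WT, and TUFM, the elongation factor Tu, at 164 and 90.7. The 5 genes of mitochondrial transcription had medians of -1.58 and -0.73, with TFAM, which packages mitochondrial DNA, at 102 and 51.7 FPKM in WT. With a scaling over genes or FPKM as deposited, the medians of protein-coding genes lie nearer 0 in both genotypes, so these values are read against the -0.70 and -0.24 of protein-coding genes on the spike-in scale.

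**Figure D5:**
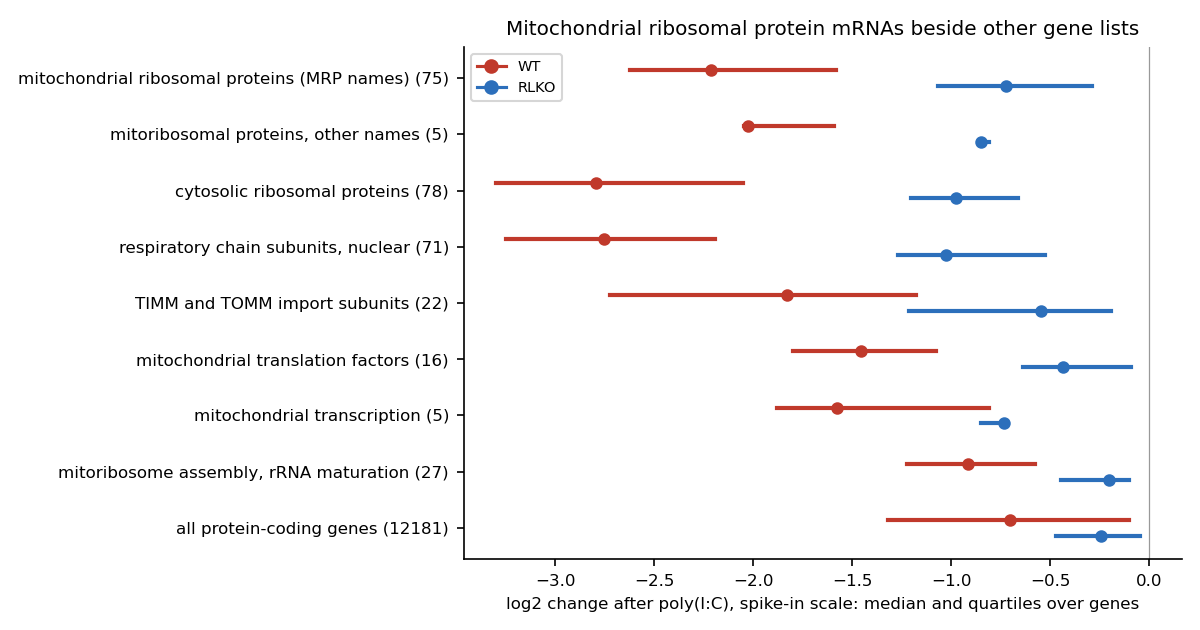
Median (point) and quartiles (bar) over genes of the log2 change after poly(I:C) on the spike-in scale, for the 75 mitochondrial ribosomal protein mRNAs, 7 other lists and all 12181 protein-coding genes, in WT (red) and RLKO (blue), with the number of kept genes in brackets. The mitoribosomal median of -2.22 in WT lies between the -2.75 of the respiratory chain and the -0.92 of mitoribosome assembly factors.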

How the data were processed

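RNA levels were analysed in 12 samples of A549 cells, 3 for each of 4 groups. Trimmomatic 0.32, FastQC, Bowtie2 2.0.2, TopHat2 2.0.6 and Cuffdiff 2.2.1 are named, in no stated order, with the build GRCh38.p12, per the submitters' processing notes; their settings, the library scaling and the use of strand are not given in the sources used here. Per the file headers, the authors gave 1 FPKM value per gene and group, so tests across samples were replaced by the authors' p-values and q-values, which the table holds for treated against untreated cells, called at 0.05. GC content in percent, transcript lengths and a half-life taken from another study are also as deposited by the authors, per the file headers.

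From these, 86 rows marked HIDATA and 45 repeated identifiers were removed. Rows with at least 1 FPKM in 1 group were kept (22087, of which 12181 protein-coding). For the spike-in factor of a group, its level was divided by the geometric mean of the 4 groups in each of the 49 ERCC rows averaging 1 FPKM or more, and the median of these ratios was used. Log2 changes had a pseudocount of 1. Classes, coordinates, exons and coding sequences came from GENCODE release 29. Python 3.11.15, pandas 2.3.3, numpy 2.4.6 and bedtools were used, and the scripts were tested on simulated data.

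The members and lists were chosen with earlier results of these data known. Named were all members past the threshold, the 6 most and 3 least abundant, the 5 lowest and 5 highest differences between genotypes, MRPS12, MRPS30, MRPS36, MRPL12, MRPL58 and the MRPS18 paralogues, the 5 proteins not named MRP, and up to 3 genes of each other list that passed or its 2 most abundant. Others are said to be picked after their values were seen or illustrate a count. Alternatives were another pseudocount, other filters, other scalings and other thresholds. A further gene of the checks is not reported here.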

Additional observations from a re-analysis of the deposited data

How the results depend on the processing

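The direction of every median over the 75 mRNAs was the same under the alternatives run, while the sizes moved mainly with the scaling. In the order WT, RLKO and WT minus RLKO, the medians were -1.61, -0.55 and -1.04 in FPKM as deposited, -2.30, -0.72 and -1.56 with the summed ERCC FPKM, -1.67, -0.36 and -1.29 with median-ratio scaling over kept genes, and -2.18, -0.72 and -1.42 over all 78 without a filter. With a pseudocount of 0.1 the WT median was -2.27, the difference -1.49 and the treated ratio -0.95. The ratios of WT to RLKO, untreated and treated, were 0.19 and -0.80 in FPKM as deposited, 0.46 and -1.05 with the summed ERCC FPKM, 0.28 and -0.96 with scaling over genes, and 0.48 and -0.91 without a filter. A filter of 10 FPKM kept the 75 and moved nothing. In WT, 40 members were called at an unadjusted p under 0.05 and 3 at a q under 0.01, against 15; a q under 0.1 gave 20 and adjustment over kept rows 14. In RLKO the call count was 0 except for 6 at an unadjusted p. Each move comes from the scaling, pseudocount, filter or threshold itself, and without replicates no spread is at hand to set it against. No paired analysis was possible because the table holds 1 value per group, and for the same reason no sample could be left out. Low members are limited by unknown depth.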

Other observations

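The 2 RNAs of the mitochondrial ribosome itself were measured after a depletion of ribosomal RNA, so their levels are what the depletion left. MT-RNR1, of the small subunit, stood at 348 FPKM in untreated WT, 80.0 in treated WT, 59.4 in untreated RLKO and 94.6 in treated RLKO. MT-RNR2, of the large subunit, stood at 498, 78.3, 98.1 and 92.0 FPKM in the same order. In both, untreated WT stood apart from the other 3 groups. Neither passed in either genotype (lowest q of 0.145 in the authors' deposited table, for MT-RNR2 in WT).

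Of the nuclear regulators of mitochondrial genes 7 of 8 were kept, with median changes of -0.53 in WT and -0.20 in RLKO, and none passed. MYC, a transcription factor that drives many ribosomal genes, stood at 87.9 FPKM in untreated and 270.3 in treated WT, and at 72.0 and 107 in RLKO (q = 0.0609 in WT in the authors' deposited table). YY1 stood at 57.3 and 45.9 FPKM in WT and at 50.8 and 52.5 in RLKO.

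Some short words were present in many promoters of the mitoribosomal genes. In RefSeq's promoter table (GRCh38.p14), 66 of the 75 kept genes had an entry, spanning 250 bases before to 50 after the start, and both strands were searched. CCGGAAG, a core bound by ETS factors such as GABPA, was present in 28 of 66 (42.4%), against 14.4% of 14888 protein-coding promoters. AAGATGGC, a core of the YY1 motif, was present in 17 (25.8%), against 3.98%. At least 1 of the pair was present in 57.6% of the 66 and in 17.5% of coding promoters, and 7 genes held both. GCATGCG, part of the palindrome bound by NRF1, was present in 6 (9.09%), against 5.20%, and TATAAA in 2 (3.03%), against 9.37%. The 66 are all kept genes, while the 14888 coding promoters were not limited to the 12181 kept protein-coding rows. No share was taken over kept genes or genes of like level, so a trait of this family cannot be told from one of expressed genes. The 28 genes with CCGGAAG had a median change in WT of -2.44 and a median untreated WT level of 118 FPKM, against -1.74 and 64.3 FPKM for the 38 without it. A match is a run of letters and not a measured binding site, and the difference in level between the 28 and the 38 goes in the direction of the relation of change to level described above.

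Copies elsewhere in the genome are common in this family. Annotated pseudogenes named for them exist for 32 of the 75, 71 copies in all, of which 14 reached 1 FPKM. The median change in WT was -2.44 for those 32 and -1.98 for the other 43. For the 20 mRNAs with neither a pseudogene nor any exon overlap it was -2.11 in WT and -0.69 in RLKO, and 6 of the 20 fell in WT. How the counting placed reads of near-identical copies is not given in the sources used.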
